A study of Homo sapiens with 9 samples.

Results

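Small nucleolar RNAs (snoRNAs) and small Cajal body RNAs (scaRNAs) were examined in RNA-seq of HCT116 cells, a human colorectal cancer line. Members were the genes whose symbol begins with SNORD, SNORA or SCARNA followed by a number. They came to 267 of the 31558 genes in the count table, of which 117 were C/D box snoRNAs (SNORD), 125 were H/ACA box snoRNAs (SNORA) and 25 were scaRNAs (SCARNA). The study asked what overexpression of CRLM1, a long noncoding RNA of colorectal liver metastases, does to gene expression. Its 9 samples were 3 biological replicates each of HCT116 cells carrying the CRLM1 cDNA in a pTSB plasmid (CRLM1-OE), the antisense of CRLM1 (Anti) or the free plasmid (Ctrl). The methods describe a lentiviral pTSB-GFP-puro vector under puromycin selection for stable lines, with the insert as the stated difference between groups, and do not say whether a line was 1 clone or a pool.

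C/D box snoRNAs guide 2'-O-methylation of ribosomal RNA with the methyltransferase fibrillarin, and H/ACA box snoRNAs guide pseudouridylation with dyskerin. A few of them, U3, U14, U22 and E1 among them, act in the cleavage of the ribosomal RNA precursor instead of, or besides, guiding a modification. scaRNAs guide the same modifications of spliceosomal RNAs in Cajal bodies. In human cells most snoRNAs are cut out of the introns of host genes, many of which encode ribosomal proteins or are noncoding snoRNA host genes (SNHG), while U3 has its own promoter.

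The libraries were made from RNA labelled as polyA RNA, and snoRNAs carry no poly(A) tail when mature. Counts were low, the cause of which was not tested, and their source (mature snoRNA, precursor or retained host intron) cannot be told apart. The read length was 151 nt, and 229 of the 265 members with a position in GENCODE 44 were shorter than this. The median member had a mean count of 1.33 over the 9 samples. A mean count of at least 5 was reached by 70 members, of at least 10 by 36, of at least 20 by 14, and of at least 100 by SNORD3A alone. The library totals were 33302292 to 44514692 counts, and 3 counts, taken as the floor, corresponded to 0.0674 to 0.0901 CPM (counts scaled to a common library size). This floor concerns counting error only, and the reads carried no molecular identifiers. The ± values below are SDs of 3 replicates or standard errors of the edgeR fit. Those errors use a spread between replicates estimated with information from all genes, not from each gene alone. All members together gave 1234 to 2934 counts per library, and SNORD3A alone supplied 20.5% to 52.3% of them.

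CRLM1 had 38704, 32751 and 35726 counts in CRLM1-OE, 0 in each Ctrl library, and 1951, 1777 and 1540 in Anti. Of 7 epithelial markers, EPCAM, KRT8, KRT18 and CDH1 were at 19.9 FPKM or more in every library, CDX2 lay between 2.72 and 3.26 FPKM, and the defining intestinal markers CDX1 and VIL1 did not exceed 0.04 FPKM. The sum of the 7 was 1804 to 1835 FPKM in CRLM1-OE, 2282 to 2323 in Ctrl and 2281 to 2311 in Anti. The summed level of 4 fibroblast markers (3 of them listed), nearly all of it COL1A1, was 2.06 to 2.50 FPKM in CRLM1-OE, 1.19 to 1.28 in Ctrl and 1.27 to 1.42 in Anti, and the part of these differences in the results was not tested. The sums of 4 leukocyte and 3 endothelial markers did not exceed 0.13 FPKM.

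By position in GENCODE 44, 245 members lay in an intron of a host gene on the same strand, 1 in an exon of a host, and 19 had no host. The hosts were 160 genes. They were protein-coding for 202 members and noncoding for 44. At the same time 129 members overlapped an exon of another gene, which for 110 of them was an exon of the host itself in one of its other transcripts. How reads in such an overlap were assigned is not stated, and whether strand was used in counting is not stated either. Beyond this, 34 symbols belonged to more than 1 gene ID and took in 81 members, so those members are given here with their host.

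Members were called higher in CRLM1-OE than in Ctrl more often than genes at large, except where they overlapped no exon of another gene. A gene was called, and is said to have risen or fallen, at a change of 2-fold or more together with an adjusted p no larger than 0.05 (edgeR quasi-likelihood test, Benjamini-Hochberg adjustment over all genes tested). Of the 255 members with a count in this comparison, 21 rose (8.24%) against 2.5% of all genes tested, and 0 fell against 0.915% of all genes. By edgeR, 2 members were lower at an unadjusted p under 0.05. DESeq2 called 0 lower, and limma called 1 lower on log2(FPKM + 0.1) and 0 on log2(FPKM + 1). With the adjusted p alone, 25 members were higher (9.8%, against 15% of all genes) and 2 were lower (0.784%, against 16.8%). Members had few counts, so they were also set beside genes of a like count. Among genes with a mean count of 5 to 100 in these 6 libraries, a range chosen after seeing the data, 20 of 75 members rose (26.7%) against 8.67% of all genes in that range, where a low gene can enter the range through the group in which it is high. DESeq2 called 10 members higher in place of 21. When members overlapping an exon of another gene were left out, 2 of the 21 remained. These were 1.61% of the 124 tested that overlap none, beside 2.5% of all genes. Those 124 were not set beside genes of a like count.

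The median log2 fold change of the members, CRLM1-OE against Ctrl, was 0.60, beside 0.02 over all genes tested. With plain library totals in place of TMM factors these were 0.74 and 0.16, a shift that applies to all values of this comparison. By class the median was 0.76 for C/D box snoRNAs, 0.43 for H/ACA box snoRNAs and 0.31 for SCARNA. Of the 70 members with a mean count of at least 5 over the 9 libraries, 59 had a positive value and the median was 0.65, while all 17456 genes at that level had a median of -0.01. Low members such as SNORA16A can pass this limit through CRLM1-OE, so these values describe the subset and are no support for the rise. Of the members that rose, 13 were C/D and 8 were H/ACA. Of 23 SCARNA tested, 0 rose and 0 fell by edgeR, with 3 higher and 1 lower at an unadjusted p under 0.05. DESeq2 called 0 SCARNA in either direction, and limma called 2 higher on log2(FPKM + 0.1) and 0 on log2(FPKM + 1).

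Against Anti, 26 of 256 members rose in CRLM1-OE (10.2%, against 3.09% of all genes) and 0 fell (against 2.56%). By edgeR, 1 member was lower at an unadjusted p under 0.05, DESeq2 called 0 lower, and limma called 1 and 0 lower with the smaller and the larger pseudocount. With the adjusted p alone, 34 were higher (13.3%, against 17.1%) and 1 was lower (0.391%, against 18.5%). Among genes with a mean count of 5 to 100, 24 of 75 members rose (32%) against 9.91% of all genes. The median of the members was 0.73, beside -0.02 over all genes. Of the members that rose, 14 were C/D and 12 were H/ACA. DESeq2 called 15 members higher. When members overlapping an exon of another gene were left out, 4 of the 26 remained. These were 3.2% of the 125 tested that overlap none, beside 3.09% of all genes. Those 125 were not set beside genes of a like count either. Of 23 SCARNA tested, 0 rose and 0 fell by edgeR, with 3 higher and 1 lower at an unadjusted p under 0.05, DESeq2 called 0, and limma called 1 higher with the smaller pseudocount and 0 with the larger.

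The comparisons of CRLM1-OE with Ctrl and with Anti share the CRLM1-OE libraries, so they are not independent of each other. The members that rose in both numbered 17, which is 81.0% of those against Ctrl and 65.4% of those against Anti, and 11 of them were C/D and 6 were H/ACA. In all, 30 members rose in at least 1 of these comparisons.

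Between Anti and Ctrl few members differed. Of 250 tested, 0 rose (against 0.683% of all genes) and 1 fell, SNORD3A (0.4%, against 0.38%). By edgeR, 1 member was higher at an unadjusted p under 0.05. DESeq2 called 0 higher, and limma called 1 higher on log2(FPKM + 0.1) and 0 on log2(FPKM + 1). With the adjusted p alone, 0 were higher (against 11.5%) and 2 were lower, SNORD3A and SNORA64 (0.8%, against 12.2%). The median of the members was -0.08, beside 0.0047 over all genes tested, and it turned to 0.02, beside 0.11, with plain library totals.

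**Figure D1:**
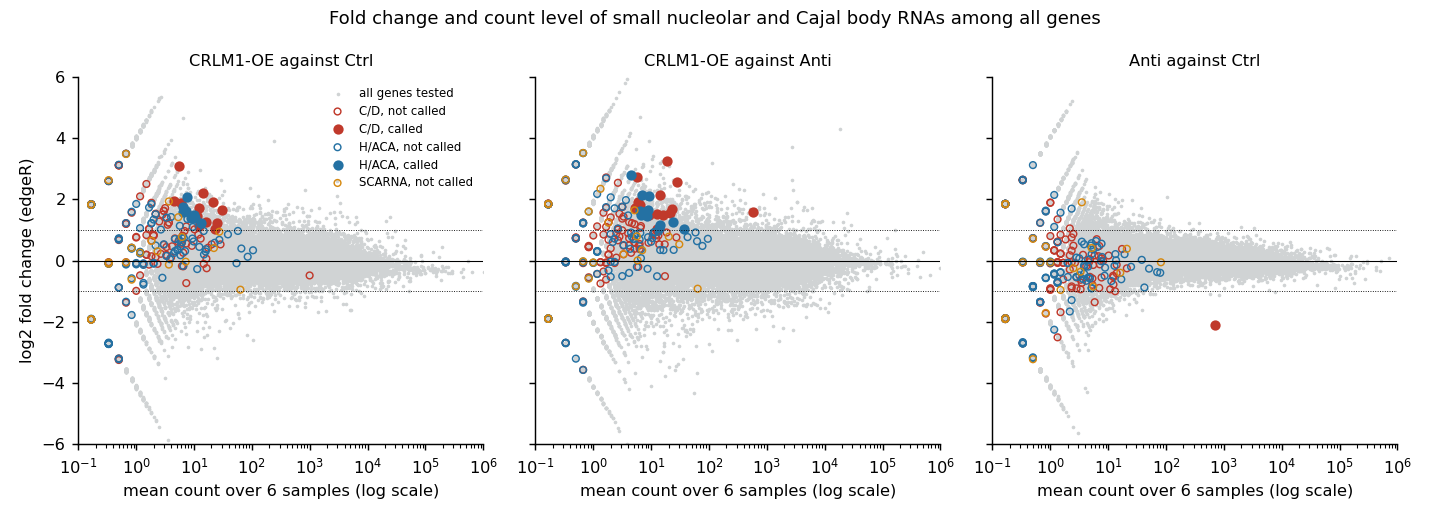
Each point is a gene, with its mean count over the 6 libraries compared on a log x axis and its edgeR log2 fold change on the y axis, in 1 panel per comparison. Grey points are all genes tested, coloured points are members by class, filled where called, and dotted lines mark a 2-fold change. Filled members lie above the upper line in the CRLM1-OE panels, 21 against Ctrl and 26 against Anti, and the filled member of the Anti against Ctrl panel is SNORD3A at -2.11. Genes beyond 6 on the y axis (3, 8 and 3 genes, none of them members) are not drawn.

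Summed over all 117 members, the C/D class had 40.0 ± 2.4 CPM in CRLM1-OE, against 40.7 ± 4.0 in Ctrl and 15.97 ± 0.45 in Anti (SD, n = 3), and the CRLM1-OE and Ctrl libraries overlapped. Most of these counts were SNORD3A in CRLM1-OE and Ctrl. C/D box snoRNAs without SNORD3A had 18.0 ± 0.54 CPM in CRLM1-OE, against 9.94 ± 0.26 in Ctrl and 8.71 ± 0.42 in Anti (SD, n = 3, scaled to TMM effective library sizes). H/ACA box snoRNAs had 24.6 ± 0.06, 17.2 ± 0.58 and 14.7 ± 0.03 CPM in the same order. The CRLM1-OE libraries lay above all others for H/ACA and for C/D without SNORD3A, with no overlap, at 1.43 and 1.81 times the Ctrl mean. The SCARNA sum was 3.85 ± 0.47 CPM in CRLM1-OE, against 3.96 ± 0.44 in Ctrl and 3.91 ± 0.18 in Anti, differences below the spread between replicates. Without SCARNA2, which was lower in CRLM1-OE, the SCARNA sum was 2.71 ± 0.45, 1.73 ± 0.15 and 1.74 ± 0.16 CPM. That sum still holds the better counted SCARNA15 entry, which is annotated as a long transcript. This entry alone had 0.93 ± 0.15, 0.49 ± 0.12 and 0.65 ± 0.26 CPM in the same order. Because these are bulk cultures, fewer cells with a given RNA and less of it per cell cannot be told apart.

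**Figure D2:**
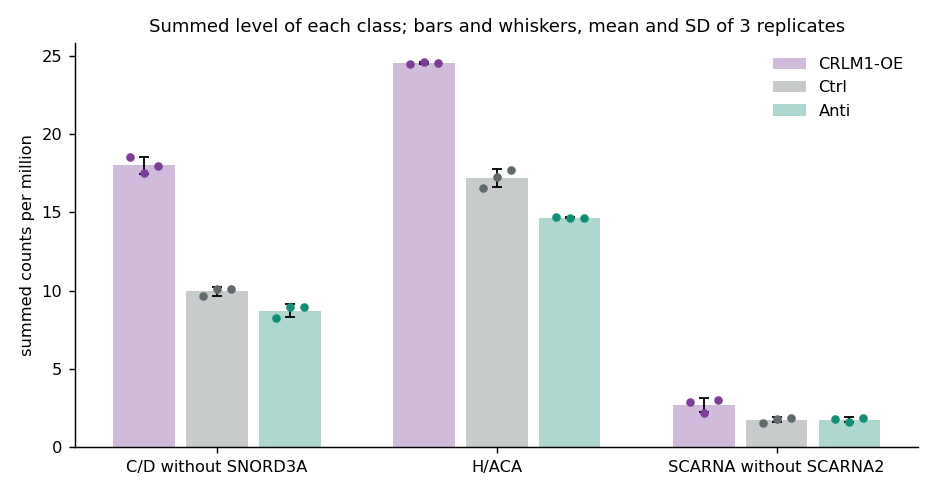
Summed CPM of each class (y axis) in each library (points), with bars for the mean and whiskers for the SD of 3 replicates. SNORD3A and SCARNA2, which were lower in CRLM1-OE than in Ctrl, are left out of their classes. With them, C/D had 40.0 CPM in CRLM1-OE and 40.7 in Ctrl, and SCARNA 3.85 and 3.96. The SCARNA sum drawn still holds the long SCARNA15 entry. The CRLM1-OE points lie above those of Ctrl and Anti in every class shown, at 18.0 CPM against 9.94 and 8.71 for C/D.

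Of the members acting in rRNA cleavage, U3 had the most counts, and its order of groups was another one. SNORD3A, annotated on chr17:19188016-19188714 (+ strand, GRCh38) with no host gene, is a U3 gene. U3 pairs with the precursor of 18S rRNA and is needed for its early cleavages. The annotated entry is 699 nt long. Bases 1 to 217 of it align with SNORD3D, another U3 gene, and the other 482 lie downstream, so counts for the entry need not come from U3 itself. The matching stretch is shown because its copies decide how unique a read can be, with the C box (TGATGA) and the D box (CTGA) in capitals:
SNORD3A, chr17:19188016-19188232, + strand: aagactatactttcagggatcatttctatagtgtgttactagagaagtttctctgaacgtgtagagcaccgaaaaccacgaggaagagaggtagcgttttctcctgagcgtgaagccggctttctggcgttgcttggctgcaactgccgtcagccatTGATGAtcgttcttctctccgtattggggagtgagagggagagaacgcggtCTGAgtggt
Over these 217 bases SNORD3B-1, SNORD3B-2 and SNORD3C were identical to SNORD3A at 216 positions and SNORD3D at 214. Over the 482 bases downstream, SNORD3B-1 was identical at 99.2% and SNORD3B-2 at 97.7%. Since the authors kept uniquely mapped reads, the split of U3 reads between these copies is uncertain.

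SNORD3A had 865, 750 and 982 counts in CRLM1-OE, 1213, 973 and 1179 in Ctrl, and 295, 265 and 262 in Anti. Scaled to library size the groups did not overlap, with Ctrl highest and Anti lowest. It fell in Anti against Ctrl by 2.11 ± 0.07 on the log2 scale (SE; adjusted p = 1.2e-201, edgeR). It rose in CRLM1-OE against Anti by 1.60 ± 0.07 (adjusted p = 9.4e-106), and against Ctrl its log2 fold change was -0.48 ± 0.05 (adjusted p = 9.9e-19), under the 2-fold limit. Over the alternative fits by edgeR, DESeq2 and limma, its highest adjusted p against Ctrl was 0.062, so not every fit passed 0.05. The highest was 3.4e-05 for CRLM1-OE against Anti and 2.1e-04 for Anti against Ctrl. The other C/D members summed to 18.0 CPM in CRLM1-OE, above both 9.94 in Ctrl and 8.71 in Anti. SNORD3B-1 and SNORD3B-2 had 0 to 5 counts per library, too few to compare. SNORD13 (U13) had 1 count in each of 2 libraries. E1, the H/ACA box RNA SNORA73B of the RCC1 intron, had 19, 14 and 11 counts in CRLM1-OE, 14, 11 and 5 in Ctrl and 8, 7 and 7 in Anti, with log2 fold changes of 0.45 ± 0.42 against Ctrl (adjusted p = 0.50) and 0.92 ± 0.45 against Anti (adjusted p = 0.10).

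The U14 genes in HSPA8 included the lowest adjusted p among members with a host, in SNORD14E. U14 is a C/D box snoRNA that both guides a methylation in 18S rRNA and is required for the cleavages that release 18S rRNA. Of its 5 genes in the table, SNORD14C, SNORD14D and SNORD14E lie in introns of HSPA8, the gene of a constitutive heat shock protein, and SNORD14A and SNORD14B lie in introns of RPS13, a ribosomal protein gene. They are shown together because they are copies of one RNA in different hosts. The C box (TGATGA) and D box (CTGA) are in capitals where these letters are present, and all lie on the - strand of chr11:
SNORD14C, HSPA8, chr11:123059335-123059422: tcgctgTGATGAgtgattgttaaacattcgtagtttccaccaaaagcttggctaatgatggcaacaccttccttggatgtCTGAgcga
SNORD14D, HSPA8, chr11:123058909-123058995: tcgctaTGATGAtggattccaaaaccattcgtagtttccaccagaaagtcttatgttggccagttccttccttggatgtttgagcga
SNORD14E, HSPA8, chr11:123058077-123058161: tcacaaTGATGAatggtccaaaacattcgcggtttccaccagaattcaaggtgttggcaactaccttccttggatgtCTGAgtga
SNORD14A, RPS13, chr11:17074654-17074744: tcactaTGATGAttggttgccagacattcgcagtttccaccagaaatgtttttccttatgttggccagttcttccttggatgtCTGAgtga
SNORD14B, RPS13, chr11:17075779-17075868: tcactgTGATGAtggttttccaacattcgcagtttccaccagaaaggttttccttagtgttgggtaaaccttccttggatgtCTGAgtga
The copies are alike without being identical. In global alignments the HSPA8 copies were 75.3% to 78.9% identical to each other, the RPS13 copies 85.9%, and a copy of one host and a copy of the other 76.9% to 81.9%.

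SNORD14E had 53, 47 and 44 counts in CRLM1-OE, 13, 15 and 14 in Ctrl and 10, 7 and 6 in Anti. Every CRLM1-OE library was above every other library. It rose by 1.66 ± 0.29 on the log2 scale against Ctrl (adjusted p = 5.2e-08) and by 2.57 ± 0.33 against Anti (adjusted p = 3.0e-14). SNORD14D had 41, 34 and 28 counts in CRLM1-OE, 7, 10 and 8 in Ctrl and 2, 2 and 6 in Anti. It rose by 1.92 ± 0.35 and 3.25 ± 0.42 (adjusted p = 1.9e-07 and 5.6e-14). SNORD14C had 27, 16 and 28 counts in CRLM1-OE, 11, 8 and 8 in Ctrl and 4, 7 and 4 in Anti. It rose by 1.27 ± 0.37 and 2.14 ± 0.43 (adjusted p = 0.0026 and 2.3e-06). Again no CRLM1-OE library overlapped the other groups for either copy. These 3 copies together were at 2.68 ± 0.14 CPM in CRLM1-OE, against 0.865 ± 0.12 in Ctrl and 0.425 ± 0.03 in Anti (SD, n = 3), which is 3.10 times the Ctrl mean and 6.31 times the Anti mean.

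The RPS13 copies had few counts and were not called. SNORD14A had 4, 5 and 6 counts in CRLM1-OE, 2, 2 and 2 in Ctrl and 2, 1 and 1 in Anti, with log2 fold changes of 1.17 ± 0.85 against Ctrl and 1.76 ± 0.92 against Anti (adjusted p = 0.36 and 0.14). SNORD14B had 4, 4 and 7, then 4, 3 and 3, then 5, 3 and 4 counts, with 0.47 ± 0.76 and 0.26 ± 0.71 (adjusted p = 0.68 and 0.81). Whether the copies of HSPA8 and RPS13 differ in their response was not tested. Among the hosts, HSPA8 itself was higher in CRLM1-OE by 0.24 against Ctrl and 0.23 against Anti on the log2 scale, far under the 2-fold limit, and RPS13 was lower by a log2 fold change of -0.28 against Ctrl and -0.07 against Anti. In Anti against Ctrl the HSPA8 copies had log2 fold changes of -0.94 (SNORD14E), -1.36 (SNORD14D) and -0.89 (SNORD14C), with adjusted p of 0.13, 0.12 and 0.32.

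**Figure D3:**
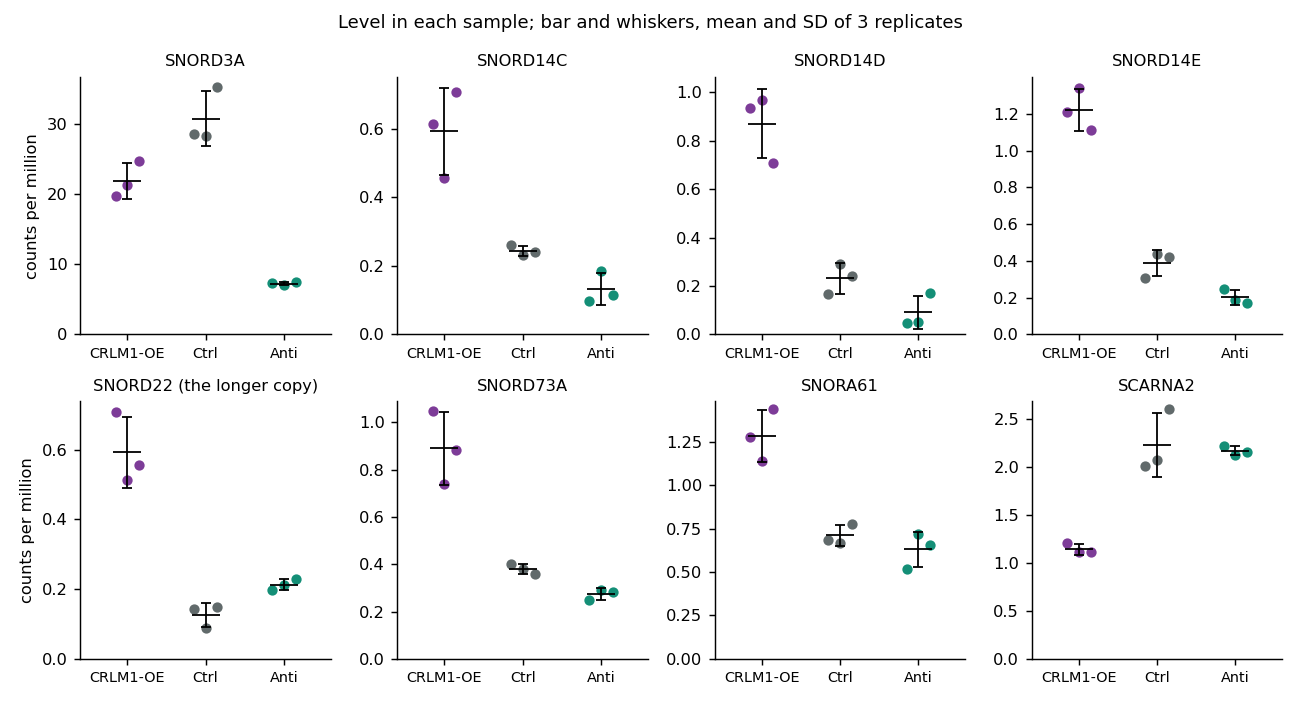
CPM on TMM effective library sizes (y axis) of 8 members in the 9 libraries (points), with the mean and SD of 3 replicates for CRLM1-OE, Ctrl and Anti. The HSPA8 copies of U14, the longer SNORD22 copy, SNORD73A and SNORA61 were highest in every CRLM1-OE library. SCARNA2 was lowest there, and SNORD3A was highest in Ctrl and lowest in Anti.

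U22 (SNORD22), a C/D box snoRNA needed for 18S rRNA maturation, also rose. Its 2 gene IDs both lie in introns of SNHG1, a noncoding gene that hosts a row of C/D box snoRNAs and whose spliced RNA has no known protein product. Their sequences are shown because they share a symbol and are only 65.4% identical, with the D box (CTGA) in capitals, and TGATGA does not occur in the first 24 bases of either:
SNORD22, longer copy, chr11:62852910-62853035, - strand: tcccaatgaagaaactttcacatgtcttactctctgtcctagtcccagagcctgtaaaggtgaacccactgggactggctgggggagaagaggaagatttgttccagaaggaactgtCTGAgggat
SNORD22, shorter copy, chr11:62854161-62854285, - strand: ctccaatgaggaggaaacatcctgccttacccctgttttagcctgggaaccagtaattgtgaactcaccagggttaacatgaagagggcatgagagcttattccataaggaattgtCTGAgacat
The longer copy had 31, 18 and 22 counts in CRLM1-OE, 6, 3 and 5 in Ctrl and 8, 8 and 8 in Anti. It rose by 2.20 ± 0.43 against Ctrl and 1.48 ± 0.38 against Anti (adjusted p = 2.5e-06 and 4.1e-04). The shorter copy had 27, 12 and 19, then 6, 6 and 4, then 9, 6 and 4 counts, and rose by 1.71 ± 0.45 and 1.52 ± 0.43 (adjusted p = 6.4e-04 and 0.0015). For both, the CRLM1-OE libraries did not overlap the others after scaling.

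Host genes with at least 3 listed members were followed as clusters, whose members share a precursor and are not independent. All 6 members in SNHG1 had positive log2 fold changes against Ctrl, from 0.84 to 2.20, and 3 of them rose, both SNORD22 copies and SNORD28. SNORD28, a guide of 18S rRNA methylation, had 12, 8 and 9 counts in CRLM1-OE, 3, 2 and 2 in Ctrl and 2, 2 and 3 in Anti (1.89 ± 0.67 and 1.93 ± 0.66, adjusted p = 0.017 and 0.012). Neither SNORD28 call was made by DESeq2 or without CRLM1-OE replicate 1. SNHG1 itself had log2 fold changes of -0.10 and -0.04 in those comparisons.

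In EIF4A2, the gene of a translation initiation helicase, all 5 members had positive values against Ctrl, from 0.55 to 1.63, and 2 rose. SNORA4 had 15, 18 and 13 counts in CRLM1-OE, 3, 6 and 6 in Ctrl and 5, 3 and 2 in Anti, and rose by 1.49 ± 0.49 and 2.11 ± 0.53 (adjusted p = 0.0086 and 2.8e-04). The other was 1 of the 2 SNORA63 genes in this host, with 15, 11 and 8, then 6, 1 and 3, then 3, 1 and 3 counts (1.63 ± 0.59 and 2.16 ± 0.64, adjusted p = 0.020 and 0.0024). EIF4A2 was at -0.08 against Ctrl and 0.19 against Anti. Against Ctrl, neither was called by DESeq2 or without CRLM1-OE replicate 2, nor SNORA4 without Ctrl replicate 1, nor SNORA63 without CRLM1-OE replicate 1 or Ctrl replicate 2.

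In TAF1D, which encodes a subunit of the RNA polymerase I selectivity factor, all 8 members had positive values in both comparisons and 1 rose in each, SNORA25. SNORA25 had 23, 14 and 19 counts in CRLM1-OE, 9, 7 and 6 in Ctrl and 8, 10 and 7 in Anti (1.22 ± 0.42 and 1.08 ± 0.41, adjusted p = 0.013 and 0.023). Neither SNORA25 call was made by DESeq2 or without CRLM1-OE replicate 1, nor the call against Anti without Anti replicate 1 or 3. Better counted members of this cluster had smaller values. SNORA8 had 133, 107 and 122 counts in CRLM1-OE, 94, 85 and 86 in Ctrl and 71, 75 and 65 in Anti, with log2 fold changes of 0.34 ± 0.15 against Ctrl (adjusted p = 0.069) and 0.71 ± 0.16 against Anti (adjusted p = 1.9e-05). SNORA18 and SNORA40 were at 0.13 and 0.40 against Ctrl and 0.48 and 0.64 against Anti. All of these are below 2-fold, and TAF1D was at -0.12 and 0.03. Over the whole cluster, values against Ctrl ran from 0.05 to 1.54.

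In SNHG12, 1 of 4 members rose against Ctrl and 2 against Anti. SNORA61, a guide RNA of the H/ACA class, had 56, 40 and 57 counts in CRLM1-OE, 29, 23 and 26 in Ctrl and 21, 27 and 23 in Anti, above all other libraries. It rose against Anti by 1.04 ± 0.25 (adjusted p = 1.2e-04), and against Ctrl its value was 0.86 ± 0.24 (adjusted p = 0.0017), under the 2-fold limit. Without CRLM1-OE replicate 3 or Anti replicate 1 the value against Anti was also under that limit, at 0.96 and 0.90. SNORA16A, with at most 14 counts, rose by 1.74 ± 0.64 and 1.62 ± 0.62 (adjusted p = 0.023 and 0.028), its CRLM1-OE and Ctrl libraries overlapped, and both calls were lost by DESeq2 and without CRLM1-OE replicate 1 or 3. Each of RPL4 (SNORD18C, 24, 13 and 15 counts in CRLM1-OE against 12, 4 and 6 in Ctrl) and RPS12 (SNORA33, 14, 16 and 16 against 5, 6 and 5) held 1 member that rose against Ctrl. SNORD18C was no longer called against Ctrl by DESeq2, or without CRLM1-OE replicate 1 or Ctrl replicate 2 or 3. SNORA33 was no longer called by DESeq2, or without CRLM1-OE replicate 2 or Ctrl replicate 1. NOP56 (SNORA51) and SNHG17 (SNORA71C) each held 1 that rose against Anti. In 9 more such hosts, GNL3, NOP58, RPL13A, RPL7A, KANSL2, LINC00888, RABGGTB, RPL23A and TBRG4, no member was called by edgeR in either comparison, and the 3 in TBRG4 had positive values against Ctrl and negative ones against Anti.

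Ribosomal protein genes held further members that rose. SNORD73A lies in RPS3A on chr4:151103827-151103891 (+ strand). It is shown as the C/D member outside U3 and U14 with the most counts among those that rose, with TGATGA and CTGA in capitals:
SNORD73A: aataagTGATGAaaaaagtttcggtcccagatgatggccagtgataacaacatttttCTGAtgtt
SNORD73A had 46, 26 and 35 counts in CRLM1-OE, 17, 13 and 12 in Ctrl and 10, 11 and 10 in Anti. It rose by 1.23 ± 0.31 against Ctrl and 1.70 ± 0.33 against Anti (adjusted p = 3.0e-04 and 8.7e-07). The CRLM1-OE libraries lay above all others.

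The remaining members with the highest counts stayed under 2-fold in most comparisons. SNORA70 in RPL10, a guide RNA of the H/ACA class, had 87, 78 and 68 counts in CRLM1-OE, 35, 40 and 35 in Ctrl and 47, 36 and 35 in Anti. Its log2 fold changes were 0.97 ± 0.20 and 0.92 ± 0.20 (adjusted p = 1.1e-05 and 1.8e-05), so it passed the adjusted p and not the 2-fold limit. Against Ctrl it was past that limit, at 1.11, with plain library totals. SNORA64 in RPS2 had 60, 51 and 53, then 55, 48 and 58, then 35, 27 and 30 counts, being lower in Anti than in Ctrl by -0.88 ± 0.23 (adjusted p = 7.3e-04) with -0.09 ± 0.20 for CRLM1-OE against Ctrl. SNORD68 in RPL13 was at 0.53 ± 0.28 and 0.76 ± 0.29 (adjusted p = 0.16 and 0.024). SNORA57, inside an intron of CSKMT, had 37, 23 and 44, then 24, 18 and 18, then 15, 13 and 13 counts, and rose against Anti (1.27 ± 0.31, adjusted p = 1.7e-04), with 0.68 ± 0.29 against Ctrl (adjusted p = 0.056). Whether these effects differ between comparisons was not tested.

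Among scaRNAs the best counted went the other way. SCARNA2, a guide RNA of U2 small nuclear RNA modification, had 53, 39 and 44 counts in CRLM1-OE, 85, 71 and 87 in Ctrl and 90, 80 and 76 in Anti. All 3 CRLM1-OE libraries were below all others after scaling. Its log2 fold changes were -0.95 ± 0.19 against Ctrl and -0.92 ± 0.19 against Anti (adjusted p = 4.9e-06 and 7.9e-06), just under the 2-fold limit, and -0.05 ± 0.17 for Anti against Ctrl. Without Ctrl replicate 1 the value against Ctrl was -1.02 and passed the limit. No other member was lower in CRLM1-OE by the adjusted p alone (edgeR), except SNORD3A against Ctrl. SCARNA12 in PHB2 had 28, 18 and 32, then 18, 18 and 18, then 14, 13 and 16 counts (0.41 ± 0.31 and 0.78 ± 0.33, adjusted p = 0.38 and 0.046). SCARNA9 and SCARNA16, with 1 to 9 counts per library, did not pass the adjusted p in any comparison by edgeR. SCARNA9 against Anti had an adjusted p of 0.046 and 0.027 by limma on log2(FPKM + 0.1) and log2(FPKM + 1), under 2-fold in both. The SCARNA15 entry, at 0.94 ± 0.29 and 0.53 ± 0.27 (adjusted p = 0.0046 and 0.12), is typed in GENCODE 44 as a long transcript of 4325 nt, so it is not read here as a small RNA.

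Members were set beside their hosts. Of the 229 intronic members tested in CRLM1-OE against Ctrl with their host, 183 had a higher value than the host, with medians of 0.59 and -0.23. Against Anti it was 182 of 227, with 0.73 and -0.08, and in Anti against Ctrl 108 of 227, with -0.08 and -0.12. With a mean count of at least 5, which low members can pass through CRLM1-OE and which was not asked of the hosts, 67 members in 44 hosts could be compared in CRLM1-OE against Ctrl. Their median log2 fold change was 0.68 and that of their hosts, counted per member, was -0.23, and 66 of 67 had a higher value than their host. Of the 18 among them that rose, 0 had a host that was called and 12 had a host with a negative value. Against Anti, the medians were 0.83 and -0.05, 62 of 66 members were above their host, and 0 of the 22 that rose had a called host. In Anti against Ctrl, where no intronic member was called, the medians were -0.18 and -0.18 and 33 of 67 were above their host. Across the 67 pairs of CRLM1-OE against Ctrl, Pearson's r was 0.35 and Spearman's rho 0.41. This is a description across genes that share hosts and libraries, not across samples. Over all 154 host genes, 39 had a positive value against Ctrl, 1 rose and 1 fell.

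A further 10 members that rose in at least 1 comparison had mean counts under 20 and are named here after their values were seen. SNORD58A in RPL17 had the largest value, with 11, 11 and 8 counts in CRLM1-OE, 2, 1 and 0 in Ctrl and 1, 1 and 2 in Anti (3.08 ± 0.79 and 2.74 ± 0.74, adjusted p = 4.6e-04 and 8.3e-04). In EIF4A1, the gene of another translation initiation helicase, SNORA48 (2.08 ± 0.60 and 1.44 ± 0.53) and SNORD10 (1.46 ± 0.51 and 1.49 ± 0.51) rose in both comparisons, as did SNORA27 in RPL21 (1.58 ± 0.63 and 1.48 ± 0.61). Against Ctrl, SNORA24 in SNHG8 (1.40 ± 0.52), SNORD50B in SNHG5 (1.97 ± 0.79) and SNORD87 in SNHG6 (1.47 ± 0.46) rose. Against Anti, SNORA62 in RPSA (1.17 ± 0.40), SNORA72 in RPL30 (1.61 ± 0.56) and SNORD83A in RPL3 (1.83 ± 0.63) rose. For all 10, the CRLM1-OE libraries did not overlap those of the group they were called against, which choosing called members makes likely. Whether these calls held in the other fits is not given here. Over all members, DESeq2 called 10 in place of 21 against Ctrl and 15 in place of 26 against Anti.

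**Figure D4:**
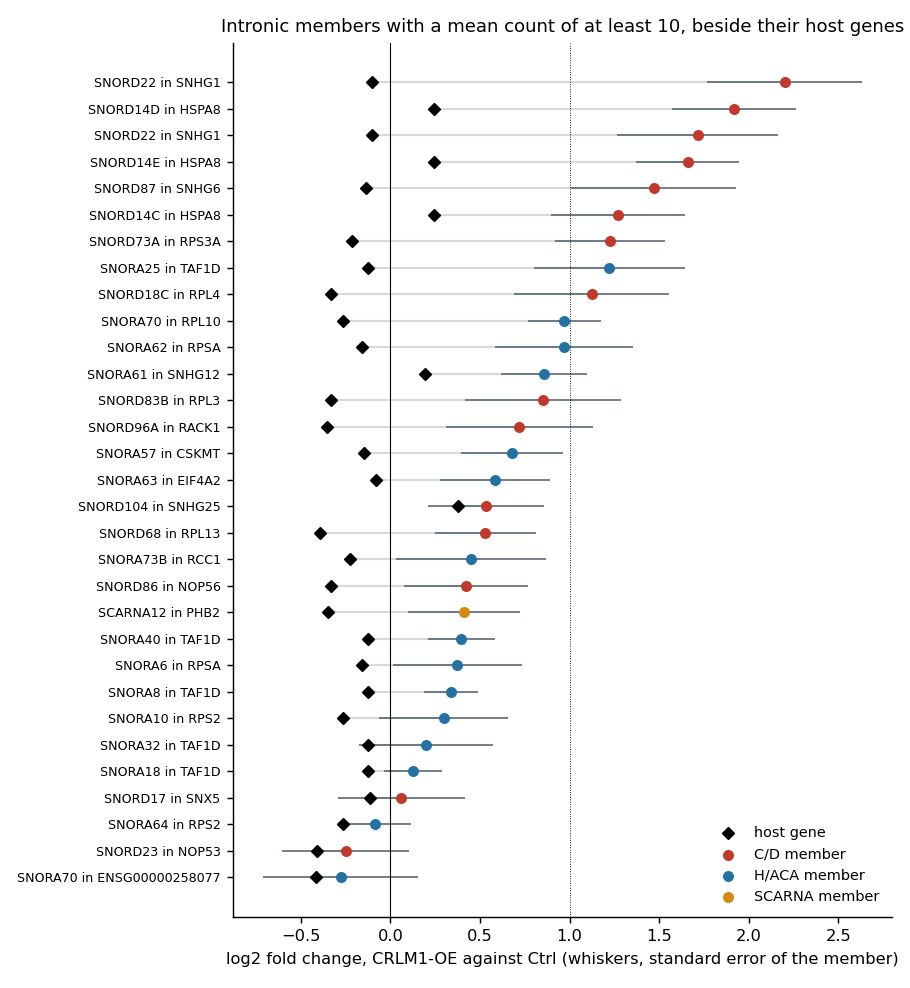
Log2 fold change of CRLM1-OE against Ctrl (x axis) for 31 of the 33 intronic members with a mean count of at least 10 (coloured points, whiskers for the standard error) and for the host gene of each (black diamonds). Hosts ranged from -0.41 to 0.38 and members from -0.28 to 2.20, and all 31 members drawn lie to the right of their host. The dotted line marks 2-fold.

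Members with a mean count of at least 5 were also split by kind of host, a grouping made after seeing the data. Against Ctrl, 5 of 11 in SNHG genes or GAS5 rose, 5 of 25 in ribosomal protein genes and 8 of 30 in other protein-coding genes. Of all genes at that level, 3.76% rose. The medians of these members were 1.36, 0.74 and 0.50. Low members can pass this limit through CRLM1-OE, so these values describe the subset. With no minimum count, 7 of 31, 6 of 51 and 8 of 144 tested rose in the same order, beside 2.5% of all genes. Members that overlap an exon of another gene held 19 of the 21 rises against Ctrl and 22 of the 26 against Anti, and their median was 0.73 (129 tested) against 0.31 for the 124 tested that overlap none. At a mean count of at least 5, the overlap was found in 16 of 18 intronic members that rose and in 38 of 49 that were not called. The introns around the members that rose were short, with a median of 332 nt (211 to 1097 nt, 17 members), against 534 nt (209 to 60790 nt, 42 members) for the others at that level, and the ranges overlapped. The part of intron length or overlap in the result was not tested.

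The box letters of the members that rose were counted beside those of all annotated genes. TGATGA within the first 24 bases was present in 62.5% of the 16 C/D members that rose in either comparison, in 59.5% of the 116 C/D members with a sequence and in 66.2% of all 314 SNORD transcripts of GENCODE 44. CTGA within the last 16 bases was present in 87.5%, 88.8% and 88.2%. The letters ACA, placed 3 bases before the end, were present in 57.1% of the 14 H/ACA members that rose, 64.5% of the 124 with a sequence and 66.4% of all 214 SNORA transcripts. Only the transcribed strand was read, and each was a match to these letters alone. SNORA61, on chr1:28579764-28579893 (- strand), is printed as the H/ACA member with the most counts among those that rose, with ACA at that place in capitals:
SNORA61: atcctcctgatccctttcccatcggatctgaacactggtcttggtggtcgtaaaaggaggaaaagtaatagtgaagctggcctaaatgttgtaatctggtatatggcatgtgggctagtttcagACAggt

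Other short RNAs of the same libraries were counted in the same way. In CRLM1-OE against Ctrl, 2.5% of all genes rose and 0.915% fell, and 3.76% of those with a mean count of at least 5 rose. Of 215 miRNA genes 4 rose (1.86%) and 1 fell, with a median of 0.37 (-0.03 against Anti). At a mean count of at least 5, 3 of 18 miRNA genes rose (16.7%) and 1 fell against Ctrl. Against Anti, 2 of them rose (11.1%, beside 4.55% of all genes at that level) and 1 fell. Of 4 RN7SK genes at that level, 1 rose in each comparison. Genes typed as sense_intronic, which lie inside introns as most members do, had a median of -0.05 against Ctrl. Of 559 tested, 9 rose (1.61%) and 6 fell, and of the 125 with a mean count of at least 5, 6 rose (4.8%) and 4 fell. Against Anti, 8 of 582 rose (1.37%, beside 3.09% of all genes) and 21 fell, with a median of -0.18. In CRLM1-OE against Ctrl, genes with RNU symbols (142 tested) had a median of 0.04, and Y_RNA genes (72 tested) a median of 0.70. By edgeR 0 of either were called and 0 had an unadjusted p under 0.05, DESeq2 called 0, and limma on log2(FPKM + 0.1) called 2 RNU genes higher. DESeq2 and both limma fits called 0 Y_RNA genes.

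The genes of proteins that carry, assemble and process these RNAs were not called, and most were lower in CRLM1-OE by the adjusted p alone. Of 30 such genes, 0 were called in any comparison by edgeR, DESeq2 or limma. In CRLM1-OE against Ctrl 2.5% of all genes rose and 0.915% fell, so 0 of 30 is near that share. In CRLM1-OE against Ctrl, 18 were lower and 2 higher by the adjusted p alone, with 18 and 3 at an unadjusted p under 0.05, and the median was -0.19. Of all genes, 16.8% were lower and 15% higher by the adjusted p alone. Apart from FBLL1, each of the 30 had at least 187 counts in every library. Of the 29846 genes tested, 17456 had a mean count of at least 5, so these shares compare genes of unlike counts. Against Anti, 19 were lower and 6 higher by either measure, with a median of -0.24, beside 18.5% and 17.1% of all genes. In Anti against Ctrl, 8 were lower and 6 higher by the adjusted p, with 10 and 8 unadjusted.

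In the C/D core particle, the methyltransferase FBL had a log2 fold change of -0.44 against Ctrl and -0.14 against Anti, the scaffold NOP56 -0.33 and -0.58, and its partner NOP58 -0.23 and -0.51. NHP2L1 (SNU13), which binds the box motif, was at 0.06 and 0.15. In the H/ACA particle, the pseudouridine synthase DKC1 was at -0.15 and -0.36, GAR1 at -0.44 and -0.41, NHP2 at -0.22 and -0.22, and NOP10 at -0.02 and 0.41. NAF1, an H/ACA assembly factor, was at -0.54 and -0.51, and RUVBL1, an ATPase of the assembly complex, at -0.43 and -0.64. Of Cajal body proteins, COIL (coilin) was at -0.44 and -0.36, and WRAP53, which brings scaRNAs to Cajal bodies, at 0.28 and 0.49. The processing factors XRN2, a 5' to 3' exonuclease, and AQR, an intron-binding helicase, were at -0.38 and -0.48 against Ctrl and -0.43 and -0.61 against Anti, while DBR1, the lariat debranching enzyme, was at 0.11 and 0.09 (adjusted p = 0.30 and 0.41). All of the values named here lie within 2-fold. FBLL1, a fibrillarin paralog, had the highest value of the list, 1.54 and 1.59 (adjusted p = 0.56 and 0.54).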

How the data were processed

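Members and gene lists were chosen with earlier results of these data known. The authors removed adaptors and poor-quality ends with the FASTX-Toolkit, discarded reads under 16 nt and mapped the others to GRCh38 with TopHat2 (4 mismatches, Gencode 23). They deposited raw counts, from uniquely mapped reads of each gene, and FPKM, which also divides by length and depth. Reads shared by near-identical snoRNA copies are lost this way. Both tables are limited to expressed genes, and how these were defined is not given in the sources used here.

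Counts were tested per comparison on 6 libraries, over genes with at least 1 count, by the quasi-likelihood test of edgeR (4.0.16, with R 4.3.3 and TMM factors). FPKM served for markers and for limma 3.58.1, and DESeq2 1.42.0 was an alternative. Fits were tested on simulated data with known changes. SE is the log2 fold change divided by the root of the F statistic. Replicates are labelled as biological. The edgeR p-values rest on a spread between replicates that is estimated with information from all genes. For a single gene they need not follow the spread of its own replicates. Hosts, positions and sequences come from GENCODE 44 (GRCh38), where 265 of 267 members matched by gene ID, and alignments used Biopython 1.88.

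Members named were those acting in rRNA cleavage, the 5 highest counts per class, the 5 largest called rises and falls with a mean count of at least 20 in each comparison, called scaRNAs, and called members of hosts with at least 3 members. A few members and hosts are not reported here by name or drawn.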

Additional observations from a re-analysis of the deposited data

How the results depend on the processing

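Counts of members called higher in CRLM1-OE moved with the test and the filter. Against Ctrl the count was 21. It was 10 by DESeq2, 43 by limma on log2(FPKM + 0.1), 12 by limma on log2(FPKM + 1), 3 of 24 tested with at least 10 counts required in every sample, and 2 without members overlapping an exon of another gene. Against Anti the count was 26, and under the same alternatives 15, 46, 16, 4 of 19 tested, and 4. It was also 16 with edgeR's filterByExpr, where 43 members were tested, and 17 without symbols that have more than 1 gene ID. The filters on counts and on members leave fewer members. DESeq2, run with its default filter, can give no adjusted p to genes of low counts, and these were scored as not called. The part of this filter and the cause of the other moves were not tested. Leaving out 1 replicate gave 14 to 21 against Ctrl, the lowest without CRLM1-OE replicate 1, and 20 to 27 against Anti.

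Of members called lower in CRLM1-OE (0), limma on log2(FPKM + 0.1) gave 1 against Ctrl and 1 against Anti, and the adjusted p alone 2 and 1. Leaving out 1 replicate gave 0 to 1 against Ctrl (SCARNA2 without Ctrl replicate 1) and 0 against Anti. For Anti against Ctrl, limma on log2(FPKM + 0.1) gave 1 higher, the adjusted p alone gave 2 lower, and leaving out 1 replicate gave 0 to 1 higher and 1 to 3 lower, where the added calls came without Anti replicate 3 (SCARNA10 higher, SNORD14D and SNORD23 lower). The mean count range of 5 to 100, the subsets by mean count and the grouping by host kind were chosen after seeing the data. So were the host comparison with no minimum count, the class sums on library totals and those without SNORD3A or SCARNA2.

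The replicate numbers did not pair the libraries. Same-numbered libraries had a mean correlation of deviations of 0.0022 over 9 pairs (-0.075 to 0.078), beside -0.0011 over 18 other pairs. With a replicate block the counts higher were 18 against Ctrl and 22 against Anti, and SNORA16A (both comparisons) and SNORD18C (against Anti) were among the calls lost.

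Values that changed sign were all of results that were not called. With library totals, in CRLM1-OE against Ctrl, SNORD13 was at 0.028, SNORA64 at 0.056 and SCARNA9 at 0.10. In Anti against Ctrl, the members' median was then 0.017, SNORD3B-2 was at 0.0018, SCARNA2 at 0.050 and SNORD28 at 0.045. With limma on log2(FPKM + 0.1), SNORD13 was at 0.016, SNORA64 at 0.032 and SCARNA9 at 0.077 against Ctrl, and in Anti against Ctrl SNORD3B-2 was at 0.019, SCARNA2 at 0.037 and SNORD28 at 0.025. With limma on log2(FPKM + 1) the values were 0.0040 for SNORD13, 0.028 for SNORA64 and 0.028 for SCARNA9, then 0.030 for SCARNA2 and 0.018 for SNORD28. With the replicate block SNORD3B-2 was at 0.10 in Anti against Ctrl.

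Leaving out 1 replicate in CRLM1-OE against Ctrl gave -0.21 to 0.87 for SNORD3B-1, -0.21 to 4.31 for SNORD3B-2, -1.87 to 1.81 for SNORD13, -0.17 to 0.059 for SNORA64 and -0.15 to 0.13 for SCARNA9. Against Anti it gave -0.040 to 0.46 for SNORD14B and -0.14 to 1.89 for SNORD3B-2. In Anti against Ctrl it gave -0.11 to 0.37 for the shorter SNORD22 copy, -0.88 to 3.17 for SNORD3B-2, -0.11 to 0.15 for SNORA70, -0.13 to 0.077 for SCARNA2, -0.17 to 0.48 for SNORD18C, -0.91 to 0.039 for SNORA63, -0.036 to 0.19 for SNORA25, -0.31 to 0.084 for SNORD28 and -0.22 to 0.56 for SNORA16A. SNORD14C, SNORD14D, SNORD14E, both SNORD22 copies and SNORD73A kept their calls in CRLM1-OE in each alternative fit that tested them. The fit requiring at least 10 counts in every sample tested SNORD73A in both comparisons, SNORD14E against Ctrl alone, and none of the rest. For most members the depth, a median mean count of 1.33, limits what could be called.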
